A study of Caenorhabditis elegans with 26 samples.

Results

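Strain AEF378, in which an extrachromosomal array drives flp-17 from the promoter of gcy-31, was compared directly with strain AEF276, which has lost flp-17, across all genes of whole Caenorhabditis elegans. The comparison used 10 of the 26 libraries of the series, 5 of each strain. Both strains carry zcls4, an hsp-4 promoter::GFP reporter on chromosome V. AEF276 carries in addition flp-17(n4894), a loss-of-function allele on chromosome IV. AEF378 carries the array ashEx67, which holds gcy-31p::flp-17::GFP and a red coelomocyte marker labelled coel::RFP, beside a chromosomal flp-17 to which the labels give no mutation. The comparison therefore sets flp-17 added to the wild-type gene against no functional flp-17. AEF231, with the reporter alone (n = 6), is the background of both strains and its values are given at the side. All worms were day 1 adults fed OP50-1 bacteria, and poly(A) RNA of whole worms was sequenced. AEF378 worms were picked out by their marker 24 h before collection, whereas AEF276 and AEF231 worms were washed and moved to new plates, so that sorting and array cannot be told apart in these samples. The array is extrachromosomal and not carried by every worm. Whether replicates are separate cultures is not said in the labels, and the p-values therefore cover only the spread from library to library.

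FLP-17 is an FMRFamide-like neuropeptide made by the BAG neurons, a pair of head sensory neurons that respond to oxygen and carbon dioxide. It acts through the G protein-coupled receptor EGL-6 on the neurons that drive egg laying, which it inhibits. gcy-31 encodes a soluble guanylate cyclase of the BAG neurons. hsp-4 encodes a BiP chaperone of the endoplasmic reticulum (ER) and is the standard readout of the ER unfolded protein response.

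Library totals lay between 9659877 and 11937032 counts in AEF378 and between 10466159 and 15528669 in AEF276. All 5 AEF276 libraries belong to batch 1 of the labels, while AEF378 has 3 libraries in batch 1 and 2, replicates 4 and 5, in batch 2. Levels are in CPM, counts scaled by edgeR to a common library size, and are given as mean ± SD over the 5 libraries of a strain. Differences are log2 fold changes of AEF378 minus AEF276 with their standard error (SE), and adjusted p-values come from quasi-likelihood tests in edgeR, adjusted by Benjamini-Hochberg over 13315 genes and called at 0.05. A library with no read of a gene allows a level of up to 0.216 to 0.305 CPM (3 counts, counting error only) in these 10 libraries. Principal components were computed only on the genes whose log2 level varied most over these 10 and the 6 AEF231 libraries. On the first component, with 58.1% of the variance of those genes, AEF276 lay between 23.9 and 31.8. AEF378 lay between -23.1 and -2.19 and AEF231 between -18.0 and -2.76 on the same axis, so the AEF276 libraries stood apart from those of both other strains.

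The neuropeptide gene itself separated the strains as labelled. flp-17 (WBGene00001460, on the minus strand of chromosome IV from 17190204 to 17191891 in WBcel235) stood at 7.56, 6.45, 7.11, 9.18 and 7.64 CPM in the AEF378 libraries. In AEF276 it stood at 0.169, 0.144, 0.764, 0 and 0.476 CPM, from 2, 2, 8, 0 and 5 reads. The groups did not overlap, and every AEF276 library lay far below every AEF378 library. The means were 7.59 ± 1.01 and 0.310 ± 0.307 CPM, with 3.80 CPM in AEF231. The difference was 4.62 ± 0.39 (adjusted p = 9.50e-09, edgeR), of which 0.99 lay between AEF378 and AEF231 and -3.63 between AEF276 and AEF231. By exact permutation of the library labels (two-sided, difference in mean log2(CPM + 0.5)) p was 0.00794, the smallest that 5 against 5 libraries allow, and in batch 1 alone 0.0179, again the smallest possible. Reads of the array and of the chromosomal gene cannot be told apart in the table.

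The gfp sequence, which both strains hold in the hsp-4 reporter and AEF378 also in the array, was read at 164, 160, 156, 196 and 140 CPM in AEF378. In AEF276 it was read at 82.0, 76.3, 75.2, 72.8 and 69.9 CPM, and the groups did not overlap. The difference of 1.19 ± 0.09 (adjusted p = 3.54e-11, edgeR) stood beside 67.8 CPM in AEF231. Reads of the reporter and of the flp-17::GFP fusion cannot be told apart. The promoter source of the array, gcy-31 (chromosome X, 2419955 to 2427504), was read at 1.70, 0.380, 1.42, 0.910 and 1.55 CPM in AEF378. In AEF276 gcy-31 was read at 0.0844, 1.08, 0.573, 0.195 and 0.476 CPM. Whether array sequence gives part of the gcy-31 reads in AEF378 was not tested. The groups overlapped, since the second library of each strain ran against the order of the others. The gcy-31 difference of 1.18 ± 0.49 passed narrowly (adjusted p = 0.0485, edgeR), and the call was lost when any one of AEF378 replicates 1, 3 and 5, AEF276 replicates 1, 3, 4 and 5, or AEF231 replicates 1 and 5 was left out.

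Of 14 genes listed for BAG neurons and FLP-17 signalling, 9 passed the filter on low counts. 3 were called higher in AEF378 (flp-17, gcy-31 and flp-13) and 0 lower, with a median difference of 0.39 against 0.04 over all genes tested. Over all genes tested 19.9% were called higher and 21.8% lower, and this and the following counts are to be read beside these shares. The shares depend on level, so the level of a list matters as well. Among genes with a mean of 1 to 10 CPM 25.7% were called higher and 1.14% lower, and at 100 CPM or more 8.60% and 59.6%. flp-13, another FMRFamide-like peptide gene, stood at 3.77 ± 0.971 against 2.19 ± 0.305 CPM, a difference of 0.78 ± 0.26 (adjusted p = 0.0154, edgeR). Without AEF378 replicate 1 the calls of flp-13 and gcy-31 were lost and 1 of the list's 3 remained. egl-6, which encodes the FLP-17 receptor, had 6.57 ± 0.371 CPM in AEF378 and 5.31 ± 1.38 CPM in AEF276, overlapping, with a difference of 0.17 ± 0.18 (adjusted p = 0.441, edgeR). The receptor-type guanylate cyclase gene gcy-9 had 3.28 against 2.41 CPM and was not called (0.39, adjusted p = 0.229, edgeR). ets-5, gcy-33, glb-5, tax-2 and tax-4 fell below the filter, with 42, 62, 10, 26 and 44 reads over the 10 libraries. In whole worms, fewer cells of a type and less RNA per cell cannot be told apart, here and in all results that follow.

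**Figure D1:**
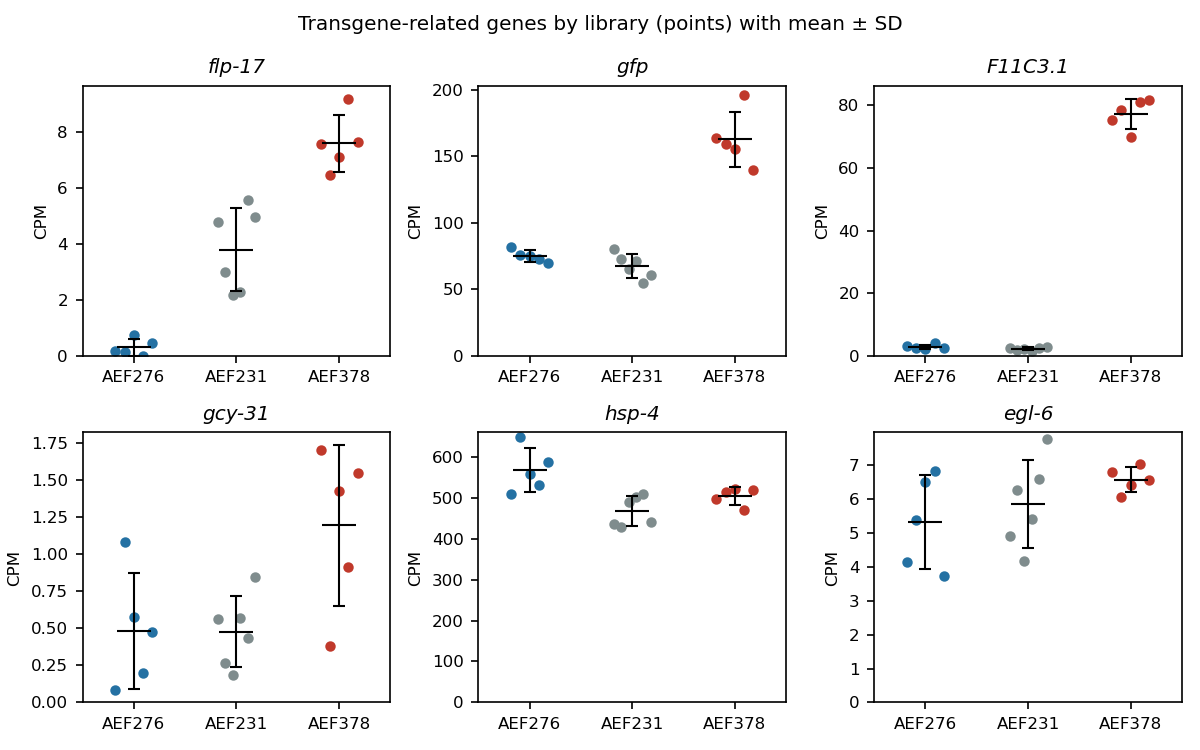
Levels in CPM of flp-17, gfp, F11C3.1, gcy-31, hsp-4 and egl-6 by strain, with 1 point for each library and mean ± SD as bars. flp-17, gfp and F11C3.1 do not overlap between AEF378 and AEF276, whereas gcy-31, hsp-4 and egl-6 do.

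Among called genes that averaged 2 CPM or more and did not overlap, the largest rise was that of F11C3.1 (WBGene00008695, chromosome I, 14867924 to 14871365, plus strand), an uncharacterised gene whose end lies 746 bp before the start of unc-122. The unc-122 promoter is commonly used to mark coelomocytes, the scavenger cells of the body cavity. F11C3.1 stood at 75.2, 78.5, 69.8, 81.2 and 81.6 CPM in AEF378 and at 3.12, 2.66, 2.1002, 4.00 and 2.67 CPM in AEF276. The groups were far apart, by 4.73 ± 0.11 (adjusted p = 3.02e-32, edgeR), with 2.297 CPM in AEF231. unc-122 itself had 2.73 ± 0.485 against 2.098 ± 0.439 CPM and was not called (0.44 ± 0.23, adjusted p = 0.124, edgeR). AEF373, another array strain of the series, whose marker is labelled unc-122p::mCherry, had F11C3.1 at 82.6 CPM. The label of AEF378 names no promoter for its coelomocyte marker, and whether array sequence gives the F11C3.1 reads was not tested. Among 6 coelomocyte genes, the membrane protein gene cup-4 was higher (0.54 ± 0.16, adjusted p = 0.00528, edgeR) and rme-8, rme-6 and cup-5, which serve endocytosis in many cells, were lower by at most 0.20. Those 3 lower calls fell to 0 or 1 when any one of AEF378 replicates 1, 2, 4 and 5, AEF276 replicates 2 and 5, or any AEF231 library was left out.

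ER stress genes differed little between the strains and in both directions. hsp-4 (chromosome II, 7350112 to 7352645), the gene behind the reporter, stood at 496, 514, 522, 470 and 519 CPM in AEF378 and at 509, 648, 558, 531 and 588 CPM in AEF276. The ranges overlapped, and only AEF276 replicate 1 lay inside the AEF378 range. The difference of -0.17 ± 0.06 passed narrowly (adjusted p = 0.0333, edgeR) and lost its call in 22 of 29 alternatives, among them batch 1 alone and 13 of the 16 fits with a single library left out. Levels were 504 ± 21.6 and 567 ± 54.2 CPM, and 467 CPM in AEF231. Of 7 BiP and sensor genes, atf-4, a transcription factor gene of the integrated stress response, was higher in AEF378 (43.4 ± 5.46 against 30.04 ± 3.23 CPM, 0.47 ± 0.08, adjusted p = 2.71e-05, edgeR). ire-1, the sensor kinase gene, was lower (183 ± 2.69 against 206 ± 6.99 CPM, -0.16 ± 0.05, adjusted p = 0.0120, edgeR), a call that was lost without AEF378 replicate 1, AEF378 replicate 2 or AEF231 replicate 4. xbp-1, pek-1, atf-6 and hsp-3 were not called, with differences of 0.13, 0.12, 0.02 and 0.10.

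Of 37 ER folding and degradation genes, 3 were called higher (8.11%) and 13 lower (35.1%), with a median of -0.08. Of all genes at 100 CPM or more, 8.60% were higher and 59.6% lower. cdc-48.1, an AAA ATPase that draws proteins out of the ER membrane, stood at 1046 ± 43.8 against 1389 ± 97.0 CPM (-0.43 ± 0.06, adjusted p = 6.34e-07, edgeR), and its libraries did not overlap. cup-2, a Derlin, was lower by a smaller step (-0.29 ± 0.05). ost-1, the C. elegans SPARC, a collagen-binding matrix protein, was higher at 232 ± 18.3 against 166 ± 5.13 CPM (0.44 ± 0.06, adjusted p = 7.31e-07, edgeR). The lower calls fell to 7 under upper quartile scaling.

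Across all genes the strains differed widely. 5553 of 13315 genes were called (41.7%), 2650 higher (19.9%) and 2903 lower (21.8%) in AEF378. The sizes were lopsided, since 829 genes were at least 2-fold higher (6.23%) and 13 at least 2-fold lower (0.0976%). The libraries of the strains did not overlap for 3080 genes (23.1%), 1392 higher (10.5%) and 1688 lower (12.7%). In batch 1 alone, 2289 genes were called higher and 2378 lower. The split between higher and lower rested on the scaling: with upper quartile factors it was 3384 higher and 1309 lower, and the median of all genes moved from 0.04 to 0.13.

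Higher and lower genes sat at different levels. Among 1444 genes with a mean below 1 CPM, 24.5% were called higher and 0.416% lower. The filter on low counts took in all 26 libraries, so a gene near 0 in AEF276 could pass it through other strains. The shares at low levels therefore depend on that filter. With a filter at a mean of 2 CPM over the 10 libraries, 287 genes were at least 2-fold higher and 5 at least 2-fold lower. Among 2407 genes at 100 CPM or more, 8.60% were called higher and 59.6% lower, with a median difference of -0.18. The 829 genes that were at least 2-fold higher had a median level of 1.18 CPM. Set against AEF231, their median was 0.41 in AEF378 and -1.38 in AEF276. The 2903 lower genes had a median difference of -0.24, with -0.10 and 0.14 for AEF378 and AEF276 against AEF231. These 2 side values share the AEF231 libraries. Against AEF231, 1022 genes were higher (7.68%) and 788 lower (5.92%) in AEF378, and 1496 were higher (11.2%) and 1209 lower (9.08%) in AEF276.

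Under the same limits (2 CPM or more, no overlap), genes of unknown role followed F11C3.1 and flp-17 among the 10 largest rises. C38D9.2 on chromosome V stood at 19.7, 23.2, 18.7, 60.8 and 50.5 CPM in AEF378 and between 0.338 and 1.71 CPM in AEF276. F41G4.7 on chromosome X stood at 11.9, 13.9, 15.8, 32.5 and 28.8 CPM against 0.675 to 1.14 CPM, and ZC15.3 on chromosome V at 4.92, 6.64, 7.01, 15.4 and 12.5 CPM against 0 to 0.573 CPM. In each of the 3 the 2 batch 2 libraries of AEF378 were the highest, and the batch 1 libraries also lay above every AEF276 library. The fitted differences, which include a term for batch, were 4.52 ± 0.27, 3.98 ± 0.27 and 4.52 ± 0.45 in that order, and 1.85, 3.50 and 3.07 for AEF378 against AEF231. The other 5 of the 10 were F26B1.8, msp-38, T27E7.1, msp-64 and msp-81, between 4.00 and 4.33. Those 5 were within 0.33 of AEF231 in AEF378 and between -4.11 and -3.86 in AEF276.

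The largest fall was ztf-28, which encodes a predicted zinc finger protein (chromosome V, 2090669 to 2091740). It stood at 1.99, 1.33, 3.15, 1.82 and 1.18 CPM in AEF378 and at 9.37, 9.49, 9.93, 7.52 and 8.19 CPM in AEF276. The groups did not overlap, the difference was -2.29 ± 0.19 (adjusted p = 8.07e-13, edgeR), and AEF231, at 10.001 CPM, sat with AEF276. ztf-28 overlaps F36F12.2 on the other strand, and the counting is not stated to use strand. The cuticle collagen gene col-135 was lower as well, at 56.2 ± 2.83 against 91.6 ± 3.98 CPM (-0.78 ± 0.14, adjusted p = 0.000214, edgeR), with 87.7 CPM in AEF231. W02B8.2 moved on the other side of the background: it had 61.7 ± 6.03 CPM in AEF378, 60.8 in AEF231 and 115 ± 7.83 in AEF276 (-0.93 ± 0.09, adjusted p = 6.82e-10, edgeR). The remaining genes of the 10 largest falls under those limits were T04D3.8 (-1.82), Y49G5A.1 (-1.79), fmil-1 (-1.17), the C-type lectin gene clec-190 (-0.93), Y49F6A.5 (-0.83), Y49E10.4 (-0.79) and T19C3.5 (-0.73).

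Sperm genes stood together on the higher side. All 27 tested of 31 major sperm protein genes, which encode the motor protein and signal of nematode sperm, were called higher in AEF378, with differences between 2.55 and 4.28 and a median of 3.36. The summed level of all 31 was 278, 115, 162, 329 and 318 CPM in AEF378 and 10.5, 15.4, 20.1, 14.2 and 22.0 CPM in AEF276. Every AEF378 library lay above every AEF276 library, replicate 2 being the lowest of AEF378. AEF231 held 138 to 316 CPM, and the median over the list was 0.07 for AEF378 and -3.19 for AEF276 against AEF231. Because the msp genes are nearly identical, the share of reads given to each copy is uncertain, and the sum less so.

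msp-152 may stand for the family, at 14.5, 8.35, 9.95, 19.6 and 17.02 CPM against 0.844, 0.862, 1.72, 1.46 and 1.05 CPM (3.03 ± 0.25, adjusted p = 1.84e-11, edgeR). Of 62 spermatogenesis genes 36 were tested, and 29 were higher and 1 lower, with a median of 2.48 (0.06 and -2.42 against AEF231). gsp-3, a protein phosphatase 1 of sperm, had 5.13 ± 1.53 against 0.355 ± 0.222 CPM (3.49 ± 0.36, adjusted p = 7.18e-10, edgeR). spe-11, a sperm factor that the embryo needs, differed by 3.74, and the small sperm genes nspd-2 and nspd-5 by 3.34 and 3.73. The 1 lower member was spe-39 (-0.27), whose product acts in vesicle trafficking in many tissues. alg-3 and alg-4, Argonautes of spermatogenesis, differed by 2.55 and 2.71 on the same side. With a filter at a mean of 2 CPM, 15 of the spermatogenesis list were called higher.

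Genes of the oogenic germ line stood the other way, by small steps. Of 52 germ line, P granule and meiosis genes 44 were lower in AEF378 and 0 higher, with a median of -0.30 (-0.12 and 0.17 against AEF231). Their summed level ran from 17536 to 18746 CPM in AEF378 and from 20613 to 23906 CPM in AEF276, without overlap. meg-3, a scaffold of P granules, stood at 81.6, 82.5, 88.6, 85.1 and 84.5 CPM against 109, 123, 123, 116 and 115 CPM (-0.49 ± 0.06, adjusted p = 9.50e-09, edgeR). puf-11, a Pumilio-family RNA-binding protein, differed by -0.50 ± 0.07, meg-1 by -0.43 ± 0.06 and daz-1, needed for oogenesis, by -0.36 ± 0.05.

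Eggshell genes moved with them, 16 lower and 2 higher of 22, median -0.32 (-0.11 and 0.21 against AEF231). cpg-4, a chondroitin proteoglycan gene, had 164 ± 3.85 against 213 ± 6.86 CPM (-0.39 ± 0.05, adjusted p = 1.73e-07, edgeR), and egg-3, which organises the oocyte-to-embryo transition, 224 ± 5.38 against 288 ± 7.62 CPM (-0.37 ± 0.05). The 2 higher members, cpg-7 (0.67) and cpg-9 (0.32), lost both calls without AEF378 replicate 1 or AEF276 replicate 3. Of 17 genes of germline sex determination 9 were lower (52.9%) and 0 higher. Over all genes tested, 27.8% were lower at 10 to 100 CPM and 59.6% at 100 CPM or more. The 9 included gld-1, a translational repressor, at 1102 ± 109 against 1405 ± 57.9 CPM (-0.40 ± 0.06, adjusted p = 1.15e-06, edgeR). fem-2, fem-3 and fog-1, which promote the sperm fate, were lower by 0.33, 0.32 and 0.44 in fitted log2 units. The count fell from 9 to 5 without AEF378 replicate 1. Vitellogenin genes gave 1 lower call of 6, vit-3, which was lost when single libraries were left out.

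Proteasome genes stood together on the lower side: 32 of 33 subunit genes were lower and 0 higher, median -0.27 (-0.13 and 0.14 against AEF231). Their summed level was 8461 to 8561 CPM in AEF378 and 9686 to 10682 CPM in AEF276. rpt-1, an ATPase of the regulatory particle, stood at 335, 345, 340, 330 and 333 CPM against 394, 456, 433, 428 and 439 CPM (-0.36 ± 0.05, adjusted p = 5.31e-07, edgeR). rpn-5 and rpn-9, lid subunits, differed by -0.38 and -0.34. Among Argonautes, 9 of 19 were lower (47.4%) and 4 higher (21.1%), the higher ones including alg-3 and alg-4. That lower share is below the 59.6% of all genes at 100 CPM or more. The lower ones included csr-1, the germline Argonaute (-0.36 ± 0.06), hrde-1 (-0.37 ± 0.07) and wago-1 (-0.34 ± 0.06), and their count fell to 4 or 5 without any one of AEF378 replicates 1, 2 and 4, AEF276 replicates 2 and 3 or AEF231 replicate 4. With upper quartile scaling 23 proteasome, 31 oogenic and 14 eggshell genes were still called lower. Against a change of 1.2-fold rather than 0, 1 proteasome and 9 oogenic genes were.

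**Figure D2:**
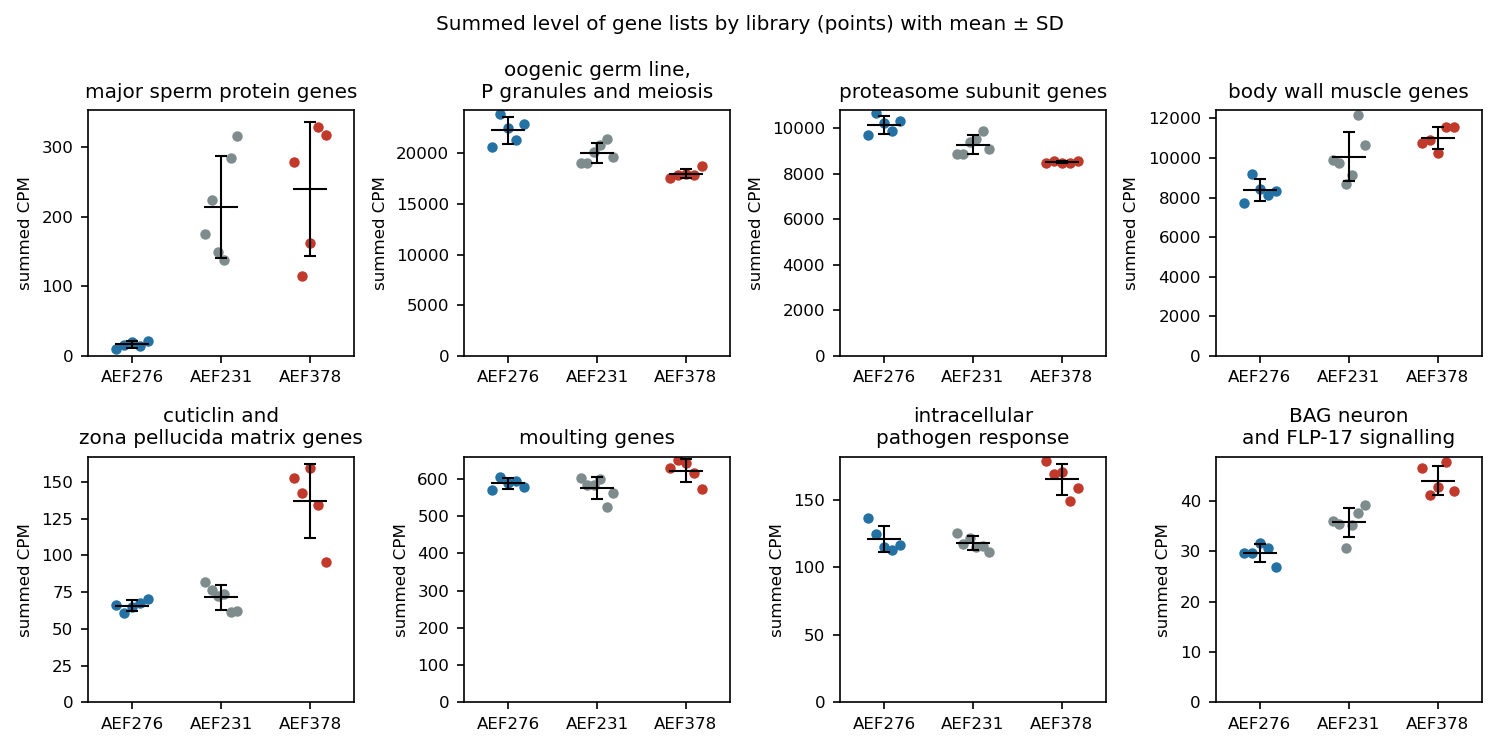
Summed CPM of 8 gene lists by strain, with 1 point for each library and mean ± SD as bars. Major sperm protein, muscle, cuticlin, pathogen response and BAG lists are higher in AEF378 than in AEF276 without overlap, oogenic and proteasome lists are lower, and moulting genes overlap. The BAG list includes flp-17 itself, at 7.59 against 0.310 CPM, by which the strains differ in design, and its sum without flp-17 was not computed.

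Cuticle collagen genes were higher in AEF378. Of 98 tested of 156 col genes 54 were higher and 1 (col-135) lower, with a median of 0.83 (0.07 and -0.67 against AEF231). col-81 stood at 113, 89.8, 93.9, 151 and 210 CPM in AEF378 and at 19.2, 23.0, 23.7, 18.3 and 25.9 CPM in AEF276. The 2 batch 2 libraries were the highest, and no library overlapped (1.96 ± 0.22, adjusted p = 1.15e-06, edgeR). col-139 differed by 2.07 ± 0.25 and col-129 by 1.87 ± 0.23, and both lay within 0.25 of AEF231 in AEF378. Without AEF378 replicate 1 the count of higher col genes fell to 34.

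Collagens of the furrows and of body shape gave 10 higher and 0 lower of 20, median 1.501, and 7 of the 20 were also higher in AEF378 than in AEF231. dpy-17 stood at 38.0, 31.9, 45.9, 18.9 and 12.38 CPM in AEF378 and between 9.77 and 12.29 CPM in AEF276. AEF378 replicate 5 lay just above the highest AEF276 library, and the difference was 1.75 ± 0.31 (adjusted p = 0.000162, edgeR). dpy-3 (2.67 ± 0.48) and dpy-2 (1.63 ± 0.33) overlapped between the strains through AEF378 replicate 5. bli-6, whose loss blisters the cuticle, had 6.23 ± 2.43 against 1.81 ± 0.920 CPM, and 6.94 CPM in AEF231 (1.67 ± 0.33).

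Genes of the apical matrix stood above both other strains in AEF378. Of 32 tested of 43 cuticlin and zona pellucida domain genes 11 were higher and 0 lower, median 0.68 (0.51 and -0.21 against AEF231). noah-1, a matrix protein laid down in embryos and at each moult, stood at 34.1, 29.0, 33.5, 28.3 and 17.02 CPM against 7.51, 6.68, 7.35, 8.59 and 7.05 CPM. Replicate 5 was the lowest of AEF378, and the groups did not overlap (2.19 ± 0.14, adjusted p = 3.66e-14, edgeR, and 1.58 against AEF231). noah-2 differed by 2.03 ± 0.18 and fbn-1, a fibrillin-like protein, by 1.85 ± 0.20. The summed level of the list was 153, 142, 160, 134 and 95.3 CPM in AEF378 and 60.5 to 70.4 CPM in AEF276.

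Of 25 moulting genes 12 were higher and 2 lower, median 0.36. mlt-11, a protease inhibitor of the cuticle, had 21.6, 20.2, 24.7, 18.2 and 6.28 CPM against 4.39 to 6.84 CPM (2.06 ± 0.25, adjusted p = 2.17e-06, edgeR), overlapping through AEF378 replicate 5. mlt-8 differed by 1.66 ± 0.25, acn-1, a peptidase-like protein of the hypodermis, by 1.42 ± 0.22 and nhr-25, a nuclear receptor that drives moulting, by 1.32 ± 0.21. The summed level of the moulting list overlapped, with 573 to 649 CPM in AEF378 and 568 to 606 in AEF276. hch-1, an astacin protease of hatching, stood at 8.70, 8.54, 10.2, 4.72 and 3.00 CPM in AEF378 and between 0.390 and 1.86 CPM in AEF276 (3.17 ± 0.39, adjusted p = 1.40e-06, edgeR, and 2.12 against AEF231). Of the 7 tested early embryo genes, hch-1 among them, 2 were called, the other being hnd-1 (0.79 ± 0.33, adjusted p = 0.0474, edgeR). The summed level of all 18 listed early embryo genes, hch-1 and those below the filter included, was 28.7 to 46.2 CPM against 27.0 to 35.8 CPM. hch-1 and the matrix and moulting genes are read in embryos and larvae as well as adults, and the part of embryos held in the worms in these differences was not tested.

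Hedgehog-related genes gave 7 higher and 0 lower of 26 tested of 59, median 0.46. grd-10 stood at 7.38 ± 1.196 against 2.47 ± 0.382 CPM (1.35 ± 0.20, adjusted p = 1.99e-06, edgeR) and wrt-10 at 4.30 ± 1.23 against 1.12 ± 0.394 CPM (2.25 ± 0.40). Patched-related genes gave 9 higher and 2 lower of 24, and 5 higher without AEF276 replicate 1. The 2 lower ones were ptc-1 (-0.35 ± 0.06), a patched homologue of the germ line, and ptr-2 (-0.30 ± 0.05). Summed over all 27 listed, the patched-related level was lower in AEF378, at 1461 to 1594 CPM against 1712 to 1959 CPM. Of 21 astacin genes 7 were higher and 0 lower, with dpy-31, a procollagen C-protease, at 25.5 ± 2.69 against 20.002 ± 1.80 CPM (0.41 ± 0.10).

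Muscle genes were higher in nearly all members. Of 37 body wall muscle genes 31 were higher and 1 lower, median 0.34 (0.13 and -0.20 against AEF231). tni-1, a troponin I, stood at 26.2, 29.1, 19.3, 27.9 and 29.6 CPM against 14.5, 15.3, 13.9, 13.8 and 13.7 CPM, without overlap (0.86 ± 0.11, adjusted p = 6.04e-08, edgeR). unc-60, a cofilin, differed by 0.73 ± 0.10, deb-1, the vinculin of dense bodies, by 0.48 ± 0.07 and mlc-1, a myosin light chain, by 0.40 ± 0.06. The summed level was 10243 to 11575 CPM in AEF378 and 7700 to 9212 CPM in AEF276. Of 15 pharyngeal genes 11 were higher and 0 lower, median 0.60, with the pharyngeal myosin heavy chain gene myo-2 at 87.9 ± 8.29 against 59.2 ± 9.54 CPM (0.57 ± 0.11) and the troponin T gene tnt-4 at 23.4 ± 3.57 against 13.4 ± 2.04 CPM (0.87 ± 0.11).

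Intestinal genes gave 14 higher and 0 lower of 27, median 0.20. act-5, the actin of microvilli, had 459 ± 60.1 against 321 ± 32.3 CPM (0.44 ± 0.07, adjusted p = 1.25e-05, edgeR). ifb-2, an intermediate filament of the gut, differed by 0.46 ± 0.07, and the cathepsin B-like proteases cpr-4 and cpr-1 by 0.49 ± 0.07 and 0.33 ± 0.06. elt-2, the GATA factor of the intestine, was higher by 0.44.

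Most of the neuronal genes that were called were higher. flp-17 aside, 29 FMRFamide-like peptide genes were tested, and 10 were higher (34.5%) and 0 lower, median 0.41 (0.22 and -0.21 against AEF231). Of the 29, 2 were higher without overlap between the strains. flp-32 stood at 3.03, 1.61, 2.44, 2.56 and 2.55 CPM against 0.952 to 1.52 CPM (1.11 ± 0.29, adjusted p = 0.00181, edgeR), and flp-28 at 16.04 ± 2.01 against 11.9 ± 1.03 CPM (0.45 ± 0.12). flp-18 overlapped through AEF378 replicate 5 and differed by 0.65 ± 0.16. Of 80 neuropeptide-like and insulin-like genes 18 were higher (22.5%) and 0 lower, a share near the 19.9% higher of all genes tested. Of the 80, 5 were higher without overlap, against 10.5% of all genes tested. The 18 included pdf-1, a pigment-dispersing factor homologue, at 15.4 ± 2.88 against 11.23 ± 0.616 CPM (0.49 ± 0.13). Without AEF378 replicate 1 the counts fell to 6 of the FMRFamide-like and 11 of the other peptide genes. Synaptic and dense-core vesicle genes gave 14 higher and 2 lower of 35, median 0.34. egl-3, the proprotein convertase that cuts neuropeptide precursors, stood at 59.4, 54.6, 70.4, 63.1 and 53.0 CPM against 42.4 to 49.4 CPM (0.42 ± 0.08, adjusted p = 3.09e-05, edgeR), above AEF231 too by 0.36. unc-64, a syntaxin, differed by 0.51 ± 0.11 and ric-4, a SNAP-25 homologue, by 0.51 ± 0.12.

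Genes of the intracellular pathogen response, which answer microsporidia and virus, gave 18 higher and 0 lower of 28 tested of 50, median 0.62. Against AEF231 the median was 0.59 in AEF378 and -0.05 in AEF276, so that AEF378 stood away from both other strains. The summed level was 149 to 178 CPM in AEF378, 113 to 137 CPM in AEF276 and 111 to 126 CPM in AEF231. skr-3, a Skp1-related gene, stood at 34.9, 32.9, 34.3, 27.8 and 32.8 CPM against 29.2, 24.3, 22.1, 21.1 and 21.3 CPM, overlapping at 1 library of each strain (0.55 ± 0.11, adjusted p = 9.22e-05, edgeR). eol-1 was read at 1.22 ± 0.431 against 0.113 ± 0.106 CPM (3.38 ± 0.61) and pals-37 at 1.91 ± 1.18 against 0.553 ± 0.233 CPM (2.29 ± 0.39), both near the level of a few reads. With only the 2 strains in the fit 8 members were called.

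Other immune families were mixed. C-type lectins gave 32 higher and 5 lower of 87, median 0.30, from clec-47 (66.7 ± 11.118 against 40.8 ± 4.67 CPM, 0.64 ± 0.09) to clec-88 (297 ± 24.9 against 381 ± 23.0 CPM, -0.36 ± 0.06). Of 11 lysozyme genes 3 were higher, with lys-4 at 0.39 ± 0.08 and lys-1 at 0.33 ± 0.07, and 5 or 6 without any one of AEF378 replicate 5, AEF276 replicate 1 and AEF231 replicates 2, 4 and 5. Of 23 PMK-1 associated genes 5 were higher (21.7%, near the 19.9% of all genes tested) and 0 lower. The higher count ran from 2 to 9 over the alternatives, with 9 without AEF276 replicate 1. The summed level of the 24 listed was 776 ± 78.7 CPM in AEF378 and 780 ± 46.4 CPM in AEF276. The 5 called included tir-1, the SARM homologue above the PMK-1 kinase cascade (0.52 ± 0.12), and dod-22 (1.21 ± 0.24). The call of tir-1 was lost without a batch term and against 1.2-fold. The caenacin list gave 1 call of 10, cnc-3, which was lost when single libraries were left out.

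F-box genes encode proteins that choose targets for ubiquitin ligases. fbxb and fbxc genes gave 17 higher (28.3%) and 3 lower of 60, median 0.61, with fbxc-51 at 10.5 ± 2.28 against 4.22 ± 1.31 CPM (1.501 ± 0.18, adjusted p = 2.26e-08, edgeR). The higher count was 26 without AEF378 replicate 5. fbxa genes gave 16 higher and 6 lower of 89, and their 17.98% higher is near the 19.9% of all genes tested. MATH and BTB domain genes gave 23 higher and 10 lower of 64, median 0.26. Summed over all 96 listed, their level was lower in AEF378, at 1556 to 1632 CPM against 1643 to 1718 CPM. The 3 MATH and BTB genes with the smallest p were neighbours on chromosome II, math-26, math-3 and math-4. Many of the higher fbxb, btb, bath and math genes lie in or just past a stretch of chromosome II that is described below. The counts of these families and of that stretch are therefore not separate results.

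Stress and metabolic lists held both directions. hsf-1, the heat shock factor, was lower (114 ± 7.44 against 138 ± 2.95 CPM, -0.28 ± 0.05, adjusted p = 6.10e-05, edgeR), as was hsp-110 (-0.32 ± 0.06). The small heat shock genes hsp-43 and hsp-25 were higher, by 0.48 ± 0.09 and 0.36 ± 0.08. Of 19 DAF-16 and stress target genes 6 were higher and 1 lower. fat-7, a stearoyl-CoA desaturase, stood at 241, 220, 219, 252.4 and 295 CPM against 148, 144, 141, 121 and 148 CPM, without overlap, and at 158 CPM in AEF231 (0.76 ± 0.09, adjusted p = 4.13e-07, edgeR). The related desaturase genes fat-2 and fat-6 were higher by 0.31 ± 0.06 and 0.25 ± 0.06.

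Detoxification families gave 9 higher and 2 lower of 36 glutathione S-transferases, 9 and 6 of 49 cytochrome P450 genes, and 17 and 0 of 55 UDP-glucuronosyltransferases. gst-4, a target of the oxidative stress factor SKN-1, had 21.7 ± 4.00 against 13.8 ± 1.95 CPM, and 22.1 CPM in AEF231 (0.68 ± 0.13, adjusted p = 0.000118, edgeR). cyp-31A2 and cyp-31A3, which act in eggshell lipid synthesis, and cyp-31A5 were lower, at -0.31 to -0.26, and are close copies. The P450 count of higher genes fell to 5 without AEF276 replicate 5 and that of lower ones to 3 without AEF231 replicates 2, 3, 4 or 6. The UDP-glucuronosyltransferase count fell to 11 without AEF378 replicate 1 or AEF276 replicate 5. Fatty acid oxidation and lipolysis genes gave 17 higher and 11 lower of 63, from acs-9 (1.06 ± 0.18) to acs-19 (-0.31 ± 0.06), and with upper quartile scaling 31 and 6.

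The ribosomal protein and oxidative phosphorylation lists differed little between AEF378 and AEF276. Of 79 cytosolic ribosomal protein genes 2 were higher and 9 lower, median -0.09, a count that fell to between 3 and 5 without AEF378 replicate 2 or 4, AEF276 replicate 2 or 3, or AEF231 replicate 3. Against AEF231, 24 of the 79 were lower and 0 higher in AEF378 (median -0.17). In AEF276, 5 were lower and 0 higher than in AEF231 (median -0.07). Of 42 nuclear oxidative phosphorylation genes 3 were higher and 8 lower, median -0.02. gas-1, the 49 kDa-type subunit of complex I, differed most, at 183, 226, 195, 222 and 229 CPM against 87.8, 105, 112, 95.4 and 101 CPM (0.98 ± 0.06, adjusted p = 3.19e-16, edgeR). Its strains did not overlap, and AEF231 lay between at 135 CPM. ucr-2.2, of complex III, was higher too, by 0.57 ± 0.07. gas-1 overlaps K09A9.6, whose reads cannot be told apart without strand.

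Chromatin and transcription genes held a few large members. Linker histones led the histone list of 9 higher and 0 lower of 30: his-24, histone H1, stood at 107, 93.3, 117, 83.6 and 78.6 CPM against 42.2, 33.4, 32.3, 31.4 and 26.8 CPM (1.67 ± 0.11, adjusted p = 3.30e-11, edgeR), and at 83.0 CPM in AEF231. hil-3 and hil-2 differed by 0.94 ± 0.11 and 0.48 ± 0.06. Homeobox genes gave 13 higher and 8 lower of 55, and 8 higher without AEF378 replicate 1. ceh-43, a Distal-less homologue, differed by 1.53 ± 0.18 and ceh-20, a Pbx homologue, by 0.66 ± 0.10, while pal-1, a Caudal homologue stored in oocytes, was lower by 0.32 in fitted log2 units. Of 165 nuclear hormone receptors 27 were higher and 6 lower, shares close to or below those of all genes. nspc genes gave 1 call of 18.

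**Figure D3:**
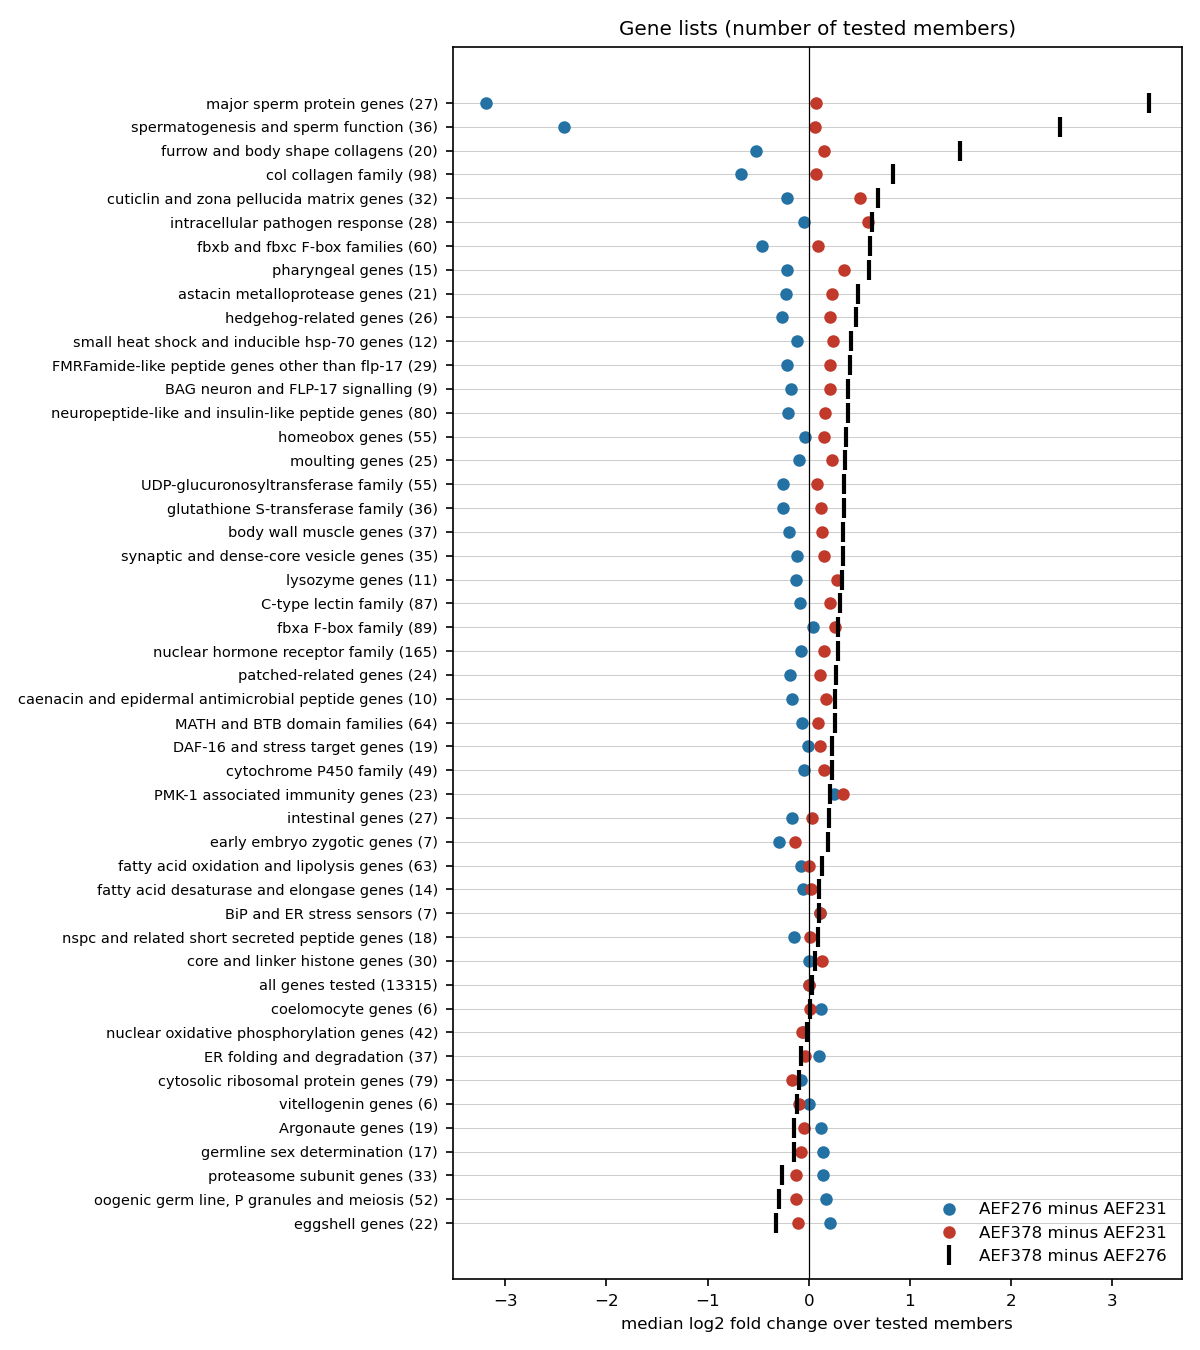
Median log2 fold change over the tested members of each list for AEF378 minus AEF276 (black bars) and for each strain minus AEF231 (points), with the number of tested members in brackets. The black bars of sperm lists lie at 3.36 and 2.48 with AEF378 points near 0, while the eggshell, oogenic and proteasome bars lie at -0.32, -0.30 and -0.27.

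Chromosome X stood apart from the autosomes. Of 1894 tested X-linked genes 543 were called higher (28.7%) and 108 lower (5.70%), with a median of 0.23. Of 10872 autosomal genes 2011 were higher (18.5%) and 2652 lower (24.4%), with a median of -0.01. The lower share ran from 17.3% on chromosome V to 31.7% on chromosome I. Against AEF231 the X median was 0.08 in AEF378 and -0.12 in AEF276. In C. elegans, genes of the germ line are known to be scarce on the X chromosome. Around flp-17 itself, where AEF276 carries its allele, 19 of 98 tested genes within 1 Mb were higher (19.4%) and 13 lower (13.3%), close to or below the shares of chromosome IV, 22.0% and 21.5%.

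**Figure D4:**
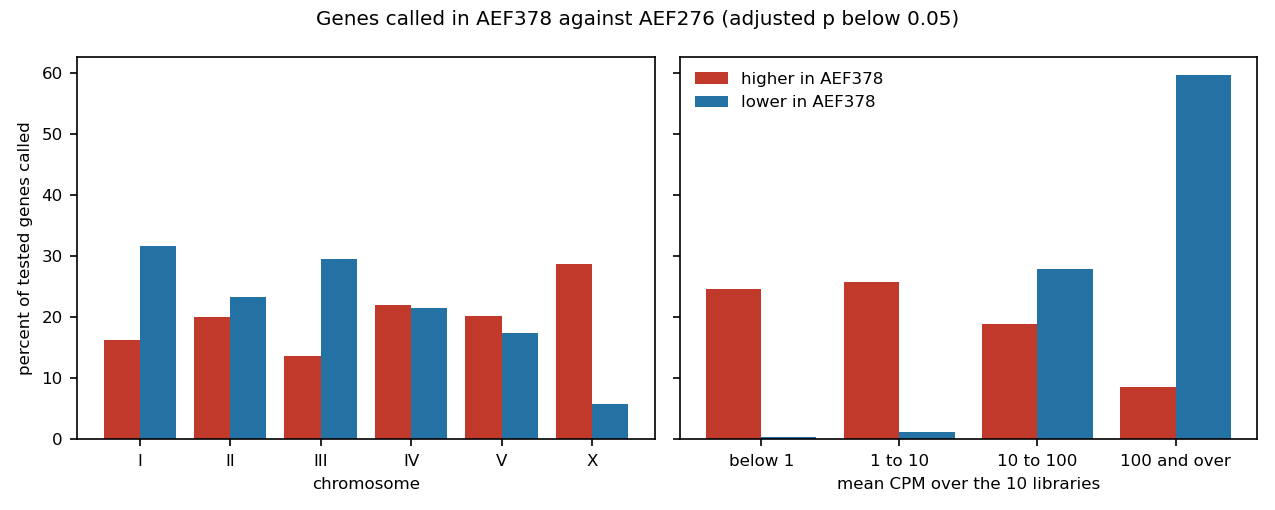
Percent of tested genes called higher or lower in AEF378 than in AEF276, by chromosome (left) and by mean CPM over the 10 libraries (right). X has 28.7% higher and 5.70% lower, and genes at 100 CPM and over have 8.60% higher and 59.6% lower.

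A stretch of the left arm of chromosome II held neighbouring genes whose called members were all higher. Many of them are F-box, MATH or BTB domain genes, which lie beside genes of other kinds such as emc-1, cogc-4 and alkb-1. Its bounds, rog-1 to math-4, were chosen after the values were seen (414 kb, 1368102 to 1782574, WBcel235). Of its 50 tested genes 40 were called higher in AEF378 than in AEF276 and 0 lower, with a median of 1.19. Against AEF231, 33 of the 50 were higher in AEF378 and 0 lower (median 0.71), while AEF276 had 5 higher and 10 lower (median -0.15). In windows of 100 kb with at least 8 tested genes, the 2 windows with the highest share of higher genes among 827 were both here, against 18.2% in the median window. The first, with 10 of 10 genes higher, lies inside the stretch, and the second, with 17 of 18 higher, runs past its end.

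The stretch includes well-read genes. Of 16 that averaged 10 CPM or more, 14 were higher than in AEF276 and 15 higher than in AEF231, with medians of 0.55 and 0.61, and the AEF276 median against AEF231 was 0.02. emc-1, a subunit of the ER membrane protein complex, stood at 325, 340, 348, 330 and 347 CPM in AEF378 and at 199, 259, 230, 223 and 238 CPM in AEF276 (0.53 ± 0.06, adjusted p = 4.88e-08, edgeR, and 0.71 against AEF231). cogc-4, of the Golgi COG complex, stood at 128, 132, 159, 133 and 129 CPM against 97.5, 120, 98.7, 106 and 100.1 CPM (0.40 ± 0.06). Neither overlapped. alkb-1, an AlkB-type demethylase homologue, differed by 0.57 ± 0.07, nol-6, a nucleolar protein, by 0.41 ± 0.08, rog-1 by 0.38 ± 0.07 and the uncharacterised Y51H7C.1 by 1.39 ± 0.11.

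At the other end of the stretch math-26 stood at 38.4, 42.8, 43.6, 36.3 and 43.8 CPM against 17.4, 18.9, 16.7, 15.5 and 15.1 CPM (1.32 ± 0.09, adjusted p = 7.10e-15, edgeR). math-4 had 27.0 ± 1.74 against 9.74 ± 0.972 CPM (1.42 ± 0.11) and math-3, which overlaps math-26, 25.5 ± 1.30 against 11.03 ± 1.55 CPM (1.23 ± 0.12). math-26 had 20.4 CPM in AEF231 and 20.1 in AEF373, another array strain, so that AEF378 stood above each of the strains named here. The level in AEF149, a further array strain of the series, is not given here. In the 400 kb before the stretch 5 of 35 genes were higher and 7 lower, median 0.13, and in the 400 kb after it 15 of 54 were higher and 1 lower, median 0.34. In genes of 10 CPM or more the flanks had medians of -0.21 and -0.02. The calls of the genes named here held when any single library was left out. Whether the copy number or sequence of this stretch differs in AEF378 was not tested.

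**Figure D5:**
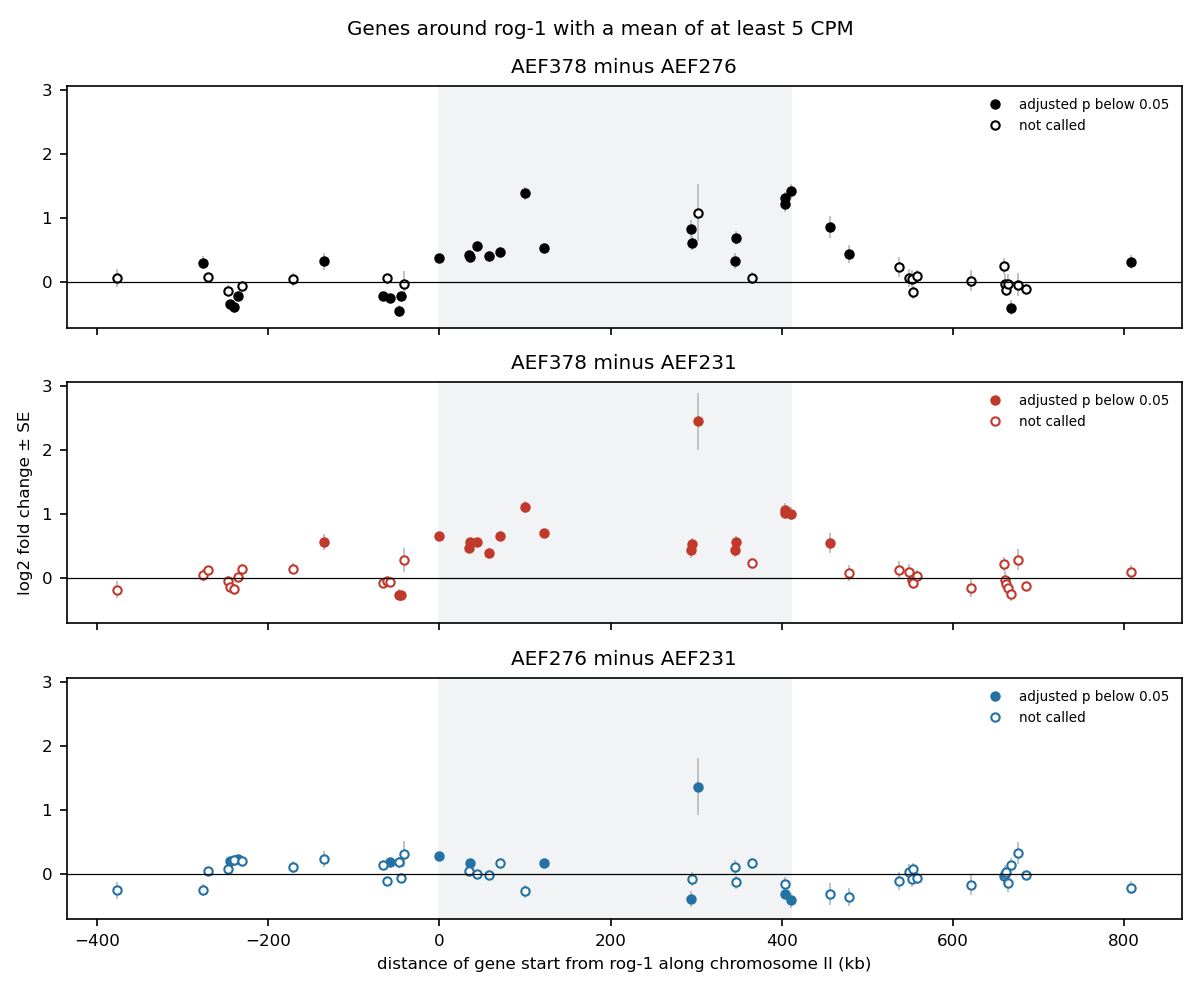
Log2 fold change ± SE of genes that averaged 5 CPM or more against their distance in kb from rog-1 along chromosome II, for 3 comparisons, with filled points called at an adjusted p below 0.05. Within the shaded stretch from rog-1 to math-4 the called points lie above 0 for AEF378 against both strains, and on both sides of 0 for AEF276 against AEF231.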

How the data were processed

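The deposited table holds, for each gene symbol, the authors' read counts in every library, as whole numbers. Per the submitters' processing notes STAR 2.7.11b and the build ce11 were used. How reads were counted, including strand, is not given in the sources used, and reads of overlapping genes cannot be told apart. Of 42533 symbols 40181 matched the Ensembl annotation of WBcel235 (the assembly of ce11), which gave positions, and unmatched symbols held 3.60% of the counts.

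Counts were used as deposited. edgeR 4.0.16 (R 4.3.3) fitted strain and batch to the 26 libraries of the series by robust quasi-likelihood, after filterByExpr and TMM scaling. The Benjamini-Hochberg method was applied over 13315 genes at 0.05, and the common biological coefficient of variation was 8.01%. Lists are described by counts and medians, without a set test. flp-17 was also tested by exact permutation with a pseudocount of 0.5 CPM. The strains, the 47 gene lists and the genes on chromosome II were chosen with earlier results of these data known.

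Named genes were flp-17, gcy-31, hsp-4, gfp, unc-122, F11C3.1 and egl-6. The rule added the 10 largest changes each way among called genes that averaged 2 CPM or more without overlap, up to 4 called members of each list with at least 3 called, and up to 2 members of the others. Other list members, the chromosome II genes and the paralogues of the closing section were named after their values were seen.

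On simulated counts for AEF378 against AEF276 (13044 genes, changed ones averaging 1 CPM or more) the fit was checked. It called 63 of 100 genes changed by 0.5 and 80 of 100 changed by 1 log2 unit, with 7 false calls among 12844. The chi-square per gene between replicates was 3.32 to 10.5 in 20 pairs, above sampling noise, so no library was taken as a repeat. Same-numbered libraries of the strains correlated at -0.0861 to 0.135 and 1 of 5 pairs was over 0.1, so numbers were not taken as pairs. The alternatives comprised DESeq2 1.42.0, other scalings, filters and thresholds, no batch term, batch 1 alone, fewer strains in the fit, a replicate block, no robust weights, a test against 1.2-fold and each library left out.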

Additional observations from a re-analysis of the deposited data

Results flagged for a closer look

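5 values lay apart from the other 4 libraries of their strain, among 144 groups of libraries examined by Dixon's rule, by which chance flags about 1 in 20 groups. The hedgehog-related genes summed to 163 CPM in AEF276 replicate 4, against 154 to 156 CPM in the other AEF276 libraries. The nuclear hormone receptor genes summed to 1634 CPM in AEF276 replicate 1, against 1667 to 1675 CPM. The astacin genes summed to 186 CPM in AEF378 replicate 3, against 177 to 178 CPM. clec-190 was read at 9.75 CPM in AEF378 replicate 3, against 5.19 to 6.36 CPM in the other AEF378 libraries, and stayed below the AEF276 libraries there too. col-135 was read at 84.7 CPM in AEF276 replicate 1, against 91.9 to 94.9 CPM, and stayed above all AEF378 libraries.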

How the results depend on the processing

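The counts of genes higher in AEF378 than in AEF276 ran from 2396 to 2978, and of genes lower from 2049 to 3012, when each library was left out in turn. The counts of genes at least 2-fold higher ran from 804 to 941 and at least 2-fold lower from 11 to 20, the 20 without AEF378 replicate 3. The flp-17 difference ran from 4.34 to 5.25. With upper quartile factors 1309 genes were lower, with a filter at a mean of 2 CPM 1802, and with only the 2 strains in the fit 1818. Against 1.2-fold (glmTreat) 1067 were higher and 104 lower, and at an adjusted p of 0.01, 1714 were higher. Genes at least 2-fold higher numbered 287 under that 2 CPM filter and 480 with only the 2 strains, and genes at least 2-fold lower 5 and 6 in those settings and 25 without a filter. DESeq2 called 2813 higher and 2709 lower. The replicate block gave 2267 higher and 2445 lower, 761 and 10 of them at least 2-fold, and its numbers did not pair the libraries. Of 200 called genes among the 210 named, 112 kept their call in every alternative, and most losses were under the 1.2-fold test. Of genes not called, asg-1 turned to 0.00689 with upper quartile factors and ran from -0.124 to 0.0109 with single libraries left out, and sdha-1 from -0.0181 to 0.138. The cause was not tested. Genes below 1 CPM rest on few reads at this depth.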

Other observations

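Some genes have close copies on the X chromosome and on an autosome, and these copies stood on opposite sides of 0 in AEF378 against AEF276. The copies were looked up after rpl-11.1 and rpl-11.2 had been seen, so they are a description. rpl-11.2 on chromosome X, which encodes ribosomal protein L11, stood at 300.4, 265, 285, 355 and 299.7 CPM in AEF378 and at 202, 251, 213, 204 and 233 CPM in AEF276 (0.37 ± 0.07, adjusted p = 7.29e-05, edgeR). Its copy rpl-11.1 on chromosome V had 1197 ± 53.6 against 1376 ± 52.3 CPM (-0.24 ± 0.05, adjusted p = 0.000429, edgeR), and neither copy overlapped between the strains. gas-1 (X) differed by 0.98 ± 0.06, while nduf-2.2 (chromosome III), the copy of the same complex I subunit, had 143 ± 5.96 against 176 ± 6.40 CPM (-0.31 ± 0.05, adjusted p = 1.36e-05, edgeR).

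The core subunit 2 of complex III has copies ucr-2.2 and ucr-2.1 on the X, higher by 0.57 ± 0.07 and 0.18 ± 0.06, and ucr-2.3 on chromosome III, at -0.22 ± 0.05 (adjusted p = 0.00101, edgeR). In the remaining families 1 copy or none was called. asb-1 (chromosome III, ATP synthase subunit b) was called at -0.24 ± 0.05 and sdha-2 (chromosome I, complex II) at -0.28 ± 0.06, and rpl-25.1 (X) at 0.49 ± 0.12. Their partners asb-2 (0.18), sdha-1 (0.04) and rpl-25.2 (-0.18) were not called, nor were asg-2 (0.11) and asg-1 (-0.09). Reads that fit both copies of a pair could be assigned to either one, depending on the counting, which is not given in the sources used here.

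C08F1.10, an uncharacterised gene just past the end of the chromosome II stretch, had 6.14 ± 1.96 CPM in AEF378, 0.610 ± 0.393 in AEF276 and 1.74 in AEF231 (3.47 ± 0.33, adjusted p = 1.71e-10, edgeR). It was named after its value was seen.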
